A study of Mus musculus with 24 samples.

Results

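Amino acid transporters move amino acids across the plasma membrane, and 9 of them form the set described here. The set was chosen by the measured signals of 1 member, Slc1a5, which separate Pax5+/- from WT arrays in these same data. The members are Slc1a5, Slc1a4, Slc7a5, Slc3a2, Slc38a1, Slc38a2, Slc7a1, Slc7a11 and Slc7a6. All 9 were found by symbol among 19938 named genes and all 9 passed the filter on dim values that kept 15647 genes. Each gene was read from its probe set with the highest mean signal. Slc38a1 has a second probe set, and the other 8 members have 1 each. Because Slc1a5 was chosen for its genotype difference, its levels are a description without a test, and the question put to the other 8 is whether they follow it.

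The 24 arrays, labelled biological replicates, measured messenger RNA in bone marrow cells of mice, and all of the mice had received 2 Gy of irradiation. The sample titles do not say whether each array is 1 mouse. Leukemic Pax5+/- samples (n = 10) and leukemic WT samples (n = 4) are labelled bone marrow B cells, and the design text describes them as tumor-bearing marrow. Preleukemic Pax5+/- samples (n = 7) and preleukemic WT samples (n = 3) are labelled pro/pre-B cells. Pax5+/- mice carry 1 functional copy of Pax5, a transcription factor that B-cell progenitors need to enter and keep the B lineage. No unirradiated group was analysed here. The label of 3 weeks after irradiation stands on every sample, leukemic ones included, so the sampling time of the leukemias is not known. Ages, strain and sex are not given in the labels. Stage and cell material change together, so disease and purity cannot be told apart. In bulk samples, fewer cells of a type and less RNA per cell cannot be told apart either.

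Values are log2 signals, on which a difference of 1 is a doubling, and the number of arrays limits their precision. The dim level, the 30th percentile of an array, lay between 5.18 and 5.35. Mean signals over 9 B-lineage precursor genes ran from 9.56 to 10.96 in leukemic Pax5+/- and 8.31 to 10.24 in leukemic WT arrays, against 11.62 to 11.88 in preleukemic Pax5+/- and 11.57 to 11.96 in preleukemic WT arrays. Leukemic WT array 2 was lowest in these genes and in Pax5 (6.34), and highest in natural killer (NK) cell genes (9.17, against 6.04 to 6.57 in the other leukemic WT arrays). Preleukemic WT array 1 stood apart in granulocyte genes, at 10.79 against 6.69 and 6.76 in the other 2 arrays of its group. Y-linked genes were high in 5 of 10 leukemic Pax5+/-, 0 of 4 leukemic WT, 4 of 7 preleukemic Pax5+/- and 3 of 3 preleukemic WT arrays, so within WT mice the stages cannot be told apart from sex. Pax5 ran from 6.87 to 11.37 in leukemic Pax5+/-, from 6.34 to 10.74 in leukemic WT, from 11.34 to 11.59 in preleukemic Pax5+/- and from 11.47 to 12.16 in preleukemic WT arrays. The genotypes overlapped in Pax5 at both stages, and whether its probes lie in the deleted part of the allele is not given in the sources used here.

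Proliferating lymphoid cells need glutamine, large neutral amino acids, arginine and cystine, and take them up through a small set of transporters. SLC1A5 exchanges glutamine and other neutral amino acids in a sodium-dependent way. SLC7A5 pairs with the heavy chain SLC3A2 and brings in leucine and other large neutral amino acids, which the kinase complex mTORC1 senses. MYC and the stress-responsive factor ATF4 are known regulators of several of these genes.

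Slc1a5, the glutamine exchanger, was lower in Pax5+/- than in WT arrays at both stages. Leukemic Pax5+/- arrays had a lowest signal of 7.98, a median of 8.23 and a highest of 9.13, and the 4 leukemic WT arrays had 9.96, 9.56, 9.25 and 9.71. Preleukemic Pax5+/- arrays ran from 8.15 through a median of 8.60 to 8.87, and the 3 preleukemic WT arrays had 11.34, 11.87 and 11.84. No Pax5+/- array reached the lowest WT array of its stage. Of all genes, 0.198% in leukemic and 3.45% in preleukemic arrays were lower in this way. The group means were 8.42 ± 0.43 in leukemic Pax5+/- and 9.62 ± 0.29 in leukemic WT arrays (SD, n = 10 and 4), a log2 difference of -1.20 or 2.3-fold lower. They were 8.53 ± 0.26 in preleukemic Pax5+/- and 11.68 ± 0.30 in preleukemic WT arrays (SD, n = 7 and 3), a log2 difference of -3.15 or 8.88-fold lower. In the order of means, preleukemic WT came first and leukemic WT second, each apart from its neighbours. Preleukemic and leukemic Pax5+/- arrays shared the lowest place and overlapped. Leukemic WT arrays were 2.06 below preleukemic WT arrays without overlap, whereas leukemic Pax5+/- arrays were 0.11 below preleukemic Pax5+/- arrays.

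The genotype difference of Slc1a5 stood 68th of 15647 genes by absolute size in leukemic arrays and 2nd of 15647 in preleukemic arrays. Slc1a5 was chosen for this difference, so the ranks restate that choice. The difference was -1.10 among leukemic arrays with low Y-linked genes and -3.24 among preleukemic arrays with high Y-linked genes. Without preleukemic WT array 1, the one rich in granulocyte genes, the preleukemic difference was -3.32. The mean of 7 erythroid marker genes (of 10 listed) also lay apart between leukemic genotypes, from 6.49 to 7.40 in Pax5+/- and from 7.61 to 9.76 in WT arrays. In preleukemic arrays the same mean ran from 7.26 to 7.80 in Pax5+/-, against 8.79, 7.25 and 7.25 in WT arrays. The 2 preleukemic WT arrays at 7.25 had Slc1a5 signals of 11.87 and 11.84. The part of erythroid cells in the leukemic difference was not tested. Mean NK-cell genes ran from 5.76 to 7.31 in preleukemic Pax5+/- and from 6.79 to 8.59 in preleukemic WT arrays, and their part was not tested. Of the leukemic arrays, Pax5+/- array 2 held the highest Pax5 signal, 11.37, with Slc1a5 at 8.10, and WT array 2 held the lowest, 6.34, with Slc1a5 at 9.56. WT array 2 was also the leukemic array lowest in B-lineage precursor genes (8.31) and highest in NK-cell genes (9.17). Whether Slc1a5 goes with the Pax5 signal was not tested.

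**Figure D1:**
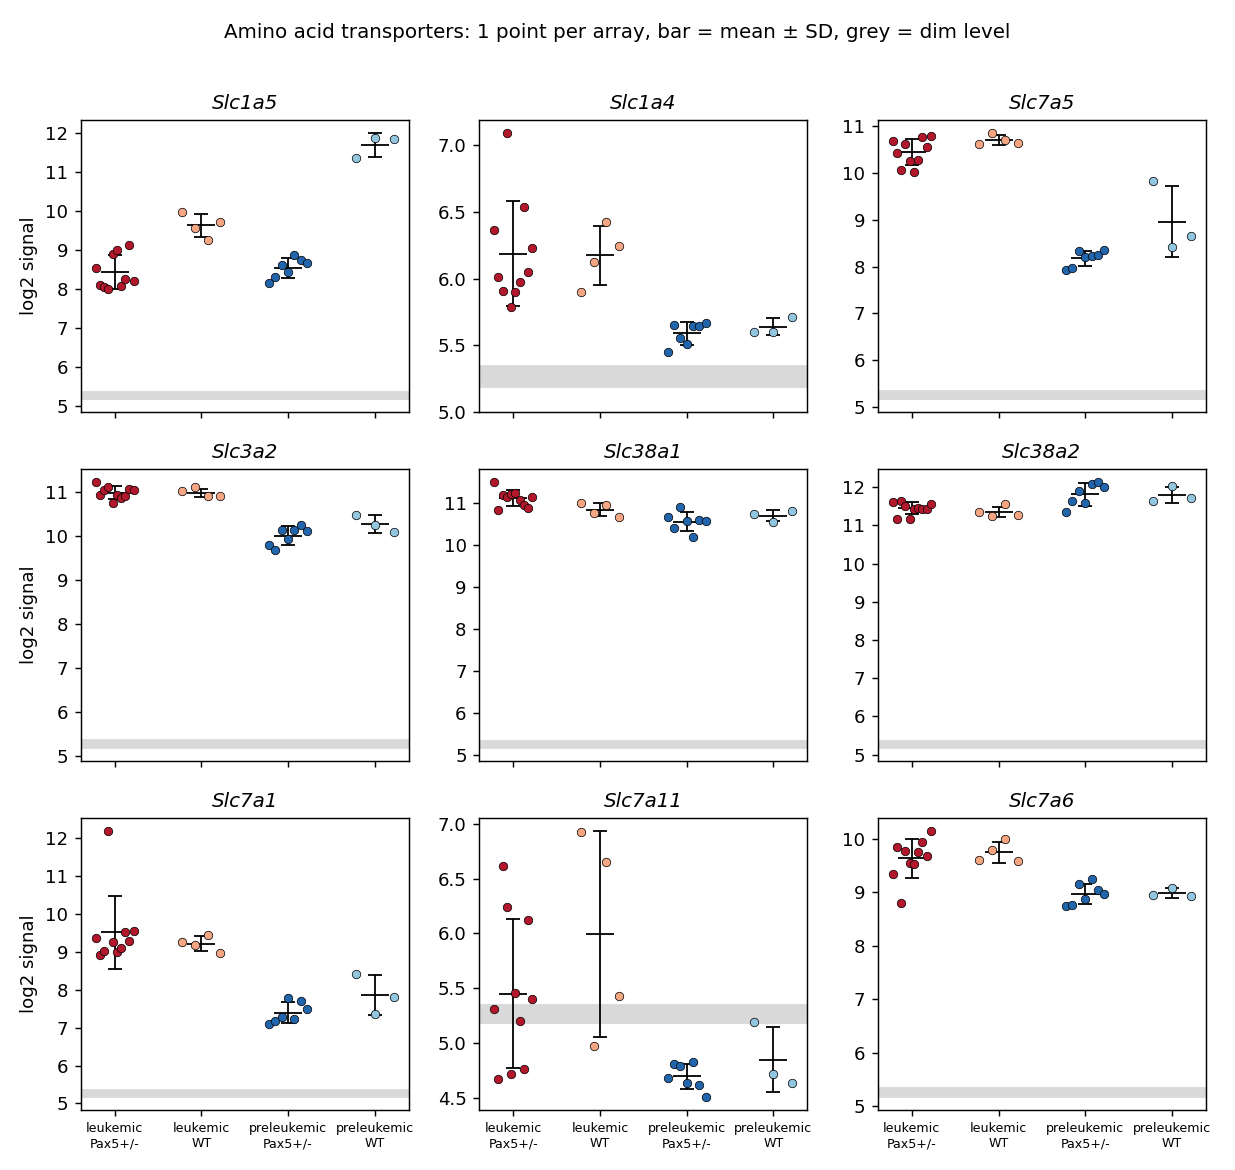
Log2 signal of each of the 9 transporter genes on all 24 arrays, 1 point per array, with mean ± SD per group and the dim level as a grey band; each panel has its own vertical scale. Slc1a5 is the gene whose 3 preleukemic WT arrays (11.34 to 11.87) sit above all others, whereas Slc7a5, Slc3a2, Slc7a1 and Slc7a6 have higher means in leukemic than in preleukemic groups, and 1 leukemic Pax5+/- array stands at 12.18 in Slc7a1.

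None of the other 8 transporters was called between genotypes, in leukemic or in preleukemic arrays (limma with Benjamini-Hochberg adjustment over all genes, adjusted p under 0.05). The shares of all genes called were 0.16% in leukemic and 0.786% in preleukemic arrays, so a count of 0 among 8 is near the background. At an unadjusted p under 0.05, 1 of the 8 was below the threshold in leukemic arrays, where 7.6% of all genes were. In preleukemic arrays 2 of the 8 were, where 9.22% of all genes were. Of the 8 differences between leukemic genotypes 5 were positive and 3 negative, with a median of 0.01 (all genes, -0.00). Of those between preleukemic genotypes 1 was positive and 7 negative, with a median of -0.15 (all genes, -0.01).

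**Figure D2:**
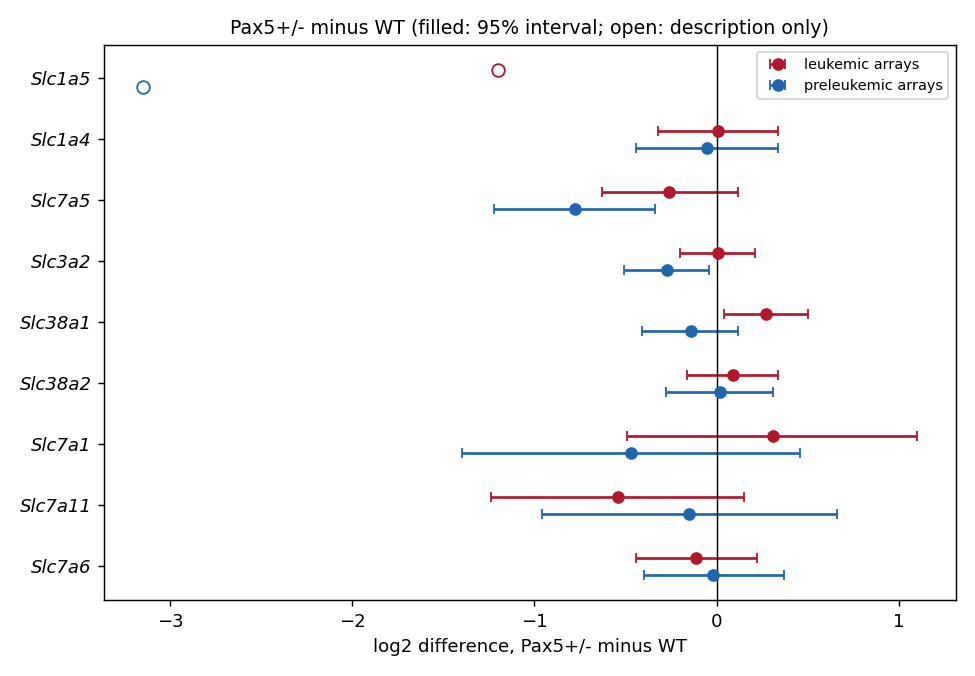
Log2 difference of Pax5+/- minus WT for the 9 transporters in leukemic (red) and preleukemic (blue) arrays, with 95% intervals from the fit for the 8 tested genes and open circles for Slc1a5, which is described only. Slc1a5 lies at -1.20 and -3.15, and the other 8 lie between -0.78 and 0.31.

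Slc7a5, the leucine transporter, came nearest to following Slc1a5. Its preleukemic Pax5+/- arrays had 7.93, 8.22 and 8.35 as lowest, median and highest signal, against 9.81, 8.41 and 8.64 in the 3 preleukemic WT arrays. All 7 preleukemic Pax5+/- arrays were below all 3 WT arrays, a pattern that 3.45% of all genes shared. The difference was -0.78 ± 0.21 (SE; 95% interval -1.22 to -0.34; limma adjusted p = 0.1), which did not pass the threshold. The value rested on WT array 1, the array rich in granulocyte genes (10.79, against 6.69 and 6.76) and in erythroid genes (8.79). Without it the difference was -0.35 (limma adjusted p = 0.464), and without WT array 2 it was -1.05 and passed (limma adjusted p = 0.027). Slc3a2, which encodes the partner heavy chain of SLC7A5, differed by -0.27 in preleukemic arrays (95% interval -0.51 to -0.04; limma adjusted p = 0.435), with signals of 9.67 to 10.26 in Pax5+/- and 10.49, 10.25 and 10.10 in WT arrays. In leukemic arrays Slc7a5 differed by -0.26 (95% interval -0.63 to 0.12) and Slc3a2 by 0.01 (95% interval -0.20 to 0.21), with overlapping groups in both.

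The remaining glutamine and neutral amino acid carriers gave small genotype differences, although Slc1a4 lay too near the dim level for a large fall to show. Slc1a4, the closest relative of Slc1a5 among the members and a carrier of alanine, serine and cysteine, differed by 0.01 in leukemic (95% interval -0.32 to 0.34) and -0.05 in preleukemic arrays (95% interval -0.44 to 0.34). Slc38a2, a sodium-coupled carrier of small neutral amino acids, differed by 0.09 (95% interval -0.16 to 0.34) and 0.02 (95% interval -0.28 to 0.31). The lower limits of these intervals are well short of the -1.20 and -3.15 of Slc1a5. Slc38a1, a sodium-coupled glutamine carrier, was the member below an unadjusted p of 0.05 in leukemic arrays, and in the opposite direction to Slc1a5. It differed there by 0.27 (95% interval 0.04 to 0.50; limma adjusted p = 0.503) and in preleukemic arrays by -0.14 (95% interval -0.41 to 0.12). Its second probe set averaged 8.43 ± 0.18 in leukemic Pax5+/- and 8.10 ± 0.36 in leukemic WT arrays (SD, n = 10 and 4).

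The carriers of cationic amino acids and cystine had wider intervals. Slc7a1, an arginine and lysine carrier, differed by 0.31 in leukemic (95% interval -0.49 to 1.10) and by -0.47 in preleukemic arrays (95% interval -1.40 to 0.46). The leukemic value was 0.01 without the 1 array at 12.18. Slc7a11, the cystine and glutamate exchanger that supplies glutathione synthesis, differed by -0.54 in leukemic arrays (95% interval -1.24 to 0.15). At the preleukemic stage it was at or below the dim level on all 7 Pax5+/- and all 3 WT arrays, so no fold is given. Slc7a6, which exchanges arginine for neutral amino acids with SLC3A2 as its partner, differed by -0.11 (95% interval -0.44 to 0.22) and -0.02 (95% interval -0.40 to 0.37).

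The stage difference of Slc1a5 was 1.95 less negative in Pax5+/- than in WT arrays, which is the same quantity as the change in its genotype difference and is given as a description. For the other 8 transporters no such difference was called (background 0.185%), and 1 was below an unadjusted p of 0.05, against 8.47% of all genes. That member was Slc38a1, at 0.41 (95% interval 0.06 to 0.76; limma adjusted p = 0.488). Slc7a5 stood at 0.52 (95% interval -0.05 to 1.10) and Slc7a1 at 0.77 (95% interval -0.45 to 2.00). The intervals of Slc3a2 (-0.03 to 0.59), Slc1a4 (-0.45 to 0.57), Slc38a2 (-0.31 to 0.46) and Slc7a6 (-0.59 to 0.41) ended below 0.6, and that of Slc7a11 ran from -1.46 to 0.67.

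The other transporters were called by stage. In Pax5+/- mice 7 of the 8 were called higher and 1 lower in leukemic than in preleukemic arrays, where 62.9% of all genes were called (27.8% higher and 35.1% lower). In WT mice 6 were called higher, 1 lower and 1 was not called, where 39.1% of all genes were called (18.7% higher and 20.4% lower). The median difference of the 8 was 0.71 in Pax5+/- and 0.73 in WT mice, and that of all genes was -0.05 in each. When arrays were centred on their medians, the called genes split into 5066 higher and 3502 lower in Pax5+/- mice, against 4354 and 5485 without centring, and into 3379 higher and 2177 lower in WT mice, against 2924 and 3191. Repeated quantile normalization gave 4752 higher and 4005 lower in Pax5+/- mice. Leukemic and preleukemic arrays did not overlap for 4 of the 8 in Pax5+/- mice, all higher in leukemia (all genes, 11.7% higher). They did not overlap for 5 higher and 1 lower of the 8 in WT mice (all genes, 18.9% higher and 20.4% lower). Within Pax5+/- arrays of low Y-linked genes 4 of the 8 were called higher. In WT mice the count called higher was 3 with Y-linked genes as a covariate and between 3 and 6 when arrays were left out singly, at 3 without leukemic array 3, preleukemic array 2 or preleukemic array 3. These comparisons share arrays with the genotype comparisons above.

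**Figure D3:**
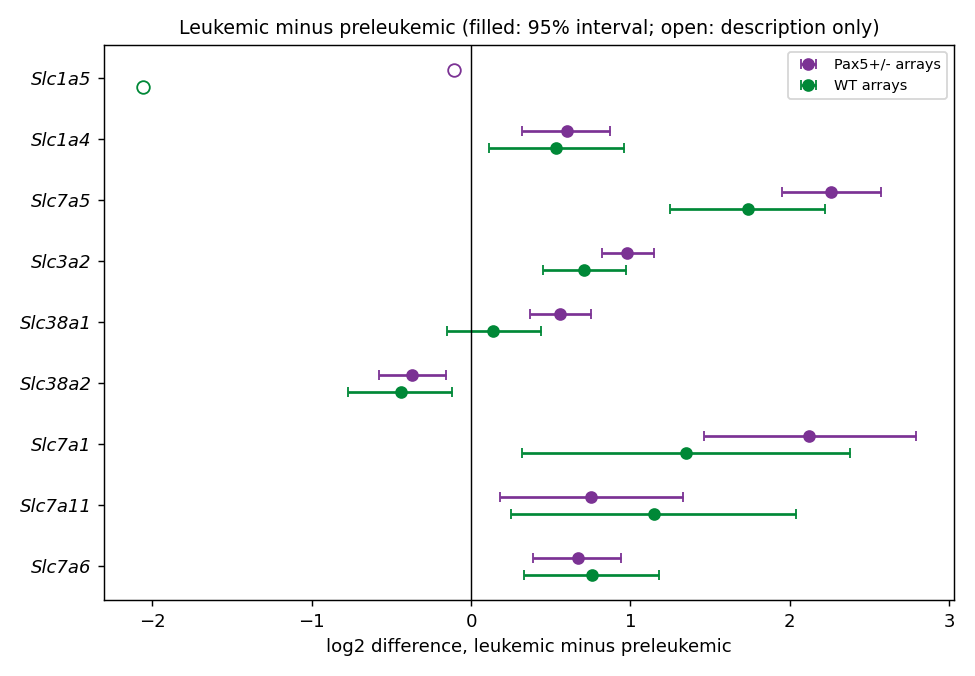
Log2 difference of leukemic minus preleukemic arrays for the 9 transporters in Pax5+/- (purple) and WT (green) mice, with 95% intervals from the fit for the 8 tested genes and open circles for Slc1a5, which is described only. Slc7a5 lies at 2.26 and 1.74 and Slc38a2 at -0.37 and -0.44, whereas Slc1a5 lies at -0.11 and -2.06.

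The leucine transporter pair was higher in leukemia in both genotypes. Slc7a5 had 10.02, 10.49 and 10.78 as lowest, median and highest signal in leukemic Pax5+/- arrays, against 7.93, 8.22 and 8.35 in preleukemic Pax5+/- arrays. The 4 leukemic WT arrays had 10.61, 10.84, 10.69 and 10.64, against 9.81, 8.41 and 8.64 in the preleukemic WT arrays. Leukemic and preleukemic arrays did not overlap in either genotype. Slc7a5 was 4.79-fold higher in Pax5+/- (log2 difference 2.26 ± 0.15 SE; limma adjusted p = 4.98e-11) and 3.34-fold higher in WT leukemias (1.74 ± 0.23 SE; limma adjusted p = 6.74e-06). Slc3a2 ran from 10.75 to 11.23 in leukemic Pax5+/- arrays, against 9.67 to 10.26 in preleukemic ones, and from 10.91 to 11.11 in leukemic WT arrays, against 10.10 to 10.49 in preleukemic ones. It was 1.98-fold higher in Pax5+/- (limma adjusted p = 1.21e-09) and 1.63-fold higher in WT leukemias (limma adjusted p = 0.000145), again with no overlap. Both calls were kept within arrays of high and of low Y-linked genes in Pax5+/- mice. Slc7a6, which shares the SLC3A2 heavy chain, ran from 8.81 to 10.14 in leukemic Pax5+/- arrays, against 8.74 to 9.25, and rose by 0.67 (limma adjusted p = 0.000177). It had 9.60, 9.78, 10.00 and 9.58 in leukemic WT arrays, against 8.94, 9.08 and 8.93, and rose by 0.76 (limma adjusted p = 0.0057). Leukemic Pax5+/- array 3 (8.81) was the one Slc7a6 value within the preleukemic range, and the Pax5+/- call ended within the arrays with low Y-linked genes (0.40, limma adjusted p = 0.109).

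Slc7a1, the arginine carrier, was higher in leukemia in both genotypes. Leukemic Pax5+/- arrays had 8.93, 9.27 and 12.18 as lowest, median and highest signal, against 7.10, 7.27 and 7.79 in preleukemic Pax5+/- arrays. The groups did not overlap, and the difference was 2.12 ± 0.32 (SE), 4.35-fold higher (limma adjusted p = 7.74e-06). It was 1.83 (limma adjusted p = 6.58e-10) without the array at 12.18. In WT mice the 4 leukemic arrays had 9.26, 9.17, 9.45 and 8.96, against 8.41, 7.37 and 7.80. The WT difference was 1.35 ± 0.50 (SE; limma adjusted p = 0.0358), and the call ended without any 1 of 5 arrays: leukemic WT array 1, 2 or 3, or preleukemic WT array 2 or 3 (1.10 to 1.36, limma adjusted p from 0.0571 to 0.153). It also ended with Y-linked genes as a covariate (0.91, limma adjusted p = 0.235).

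Among the sodium-coupled carriers, Slc38a1 rose in Pax5+/- leukemias and Slc38a2 fell in both genotypes. Slc38a1 ran from 10.84 to 11.49 in leukemic Pax5+/- arrays, against 10.19 to 10.90, a rise of 0.56 (limma adjusted p = 2.25e-05) with some overlap. In WT arrays it had 10.99, 10.76, 10.95 and 10.66, against 10.74, 10.55 and 10.80, a difference of 0.14 (95% interval -0.15 to 0.44; limma adjusted p = 0.44). Slc38a2, which is known to respond to amino acid starvation, ran from 11.18 to 11.63 in leukemic Pax5+/- arrays, against 11.34 to 12.13. It fell by 0.37 there (limma adjusted p = 0.00362), a call that ended within arrays of high Y-linked genes (-0.34, limma adjusted p = 0.0958). Its leukemic WT arrays had 11.35, 11.25, 11.55 and 11.27, all below the 11.64, 12.03 and 11.72 of the preleukemic WT arrays, and it fell by 0.44 (limma adjusted p = 0.0302). The WT call ended with centred arrays (-0.37, limma adjusted p = 0.0752) and without any 1 of 4 WT arrays (limma adjusted p from 0.0542 to 0.17).

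Slc7a11 was dim before leukemia, and Slc1a4 lay a little above the dim level on every preleukemic array. Slc1a4 had 5.79, 6.03 and 7.10 as lowest, median and highest signal in leukemic Pax5+/- arrays, against 5.45, 5.65 and 5.67, without overlap. It was 1.51-fold higher (log2 difference 0.60; limma adjusted p = 0.000618), and the call ended within arrays of low Y-linked genes (0.63, limma adjusted p = 0.0541). In WT arrays it had 5.90, 6.13, 6.42 and 6.25, against 5.60, 5.60 and 5.72, a difference of 0.53 (limma adjusted p = 0.0447). Slc7a11 had 6.92, 4.97, 6.65 and 5.42 in leukemic WT arrays, against 5.19, 4.72 and 4.63, and was at least 1.61-fold higher (limma adjusted p = 0.0395). In leukemic Pax5+/- arrays it ran from 4.67 to 6.61 with 4 of 10 arrays at or below the dim level, against 4.51 to 4.82 with all 7, and was at least 1.1-fold higher (limma adjusted p = 0.0227). The leukemic arrays were thus split between dim and measurable in both genotypes. The Slc7a11 call in Pax5+/- mice ended within arrays of low (1.14, limma adjusted p = 0.0757) and of high Y-linked genes (0.37, limma adjusted p = 0.115). The WT call of Slc1a4 sat at the threshold and ended in 13 of 24 fits with 1 array left out (limma adjusted p up to 0.121). Some of these left out a Pax5+/- array, which is not in the comparison. It also ended with array weights (limma adjusted p = 0.0635) and without the dim filter (limma adjusted p = 0.0533). The WT call of Slc7a11 ended in 4 of the 24 fits (limma adjusted p up to 0.135). With Y-linked genes as a covariate the WT values were 0.46 for Slc1a4 (limma adjusted p = 0.167) and 0.75 for Slc7a11 (limma adjusted p = 0.256).

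The cells of these marrows differ in other markers as well. The mean of 6 megakaryocyte and platelet genes ran from 8.14 to 11.11 in leukemic Pax5+/- and 9.61 to 10.49 in leukemic WT arrays, against 6.80 to 7.05 in preleukemic Pax5+/- and 6.88 to 7.02 in preleukemic WT arrays. The mean of 9 stromal and endothelial genes ran from 7.45 to 8.50 and 7.94 to 8.33 in the same leukemic groups, against 6.72 to 6.92 and 6.84 to 6.95. Monocyte and macrophage genes ran from 6.64 to 9.15 and 7.30 to 7.93, against 5.85 to 6.01 and 6.03 to 6.53. These lists move with stage, as the transporters do, and their part in the transporter differences was not tested.

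Promoter sequence is shown for Slc7a11 and Slc1a4 because these 2 of the members matched a motif of the amino acid response. RefSeq promoter windows of GRCm38.p6, 250 bases before to 50 bases after the start, were matched for 6 of the 9 members, with 8 windows in all. Slc1a5, Slc7a5 and Slc38a1 had no matched window and were not searched. The motif TGATGNAAN, searched on both strands, was in 2 of the 8 windows and in 3.95% of 32851 RefSeq windows. The E-box CACGTG, a MYC-binding motif that reads the same on both strands, was in 0 of 8 and in 7.15%. Stretches of 160 bases follow on the gene's strand, from position -150 to position 10 relative to the start, with the matched motif in capitals.
Slc7a11 (chr3:50443604-50443763, minus strand): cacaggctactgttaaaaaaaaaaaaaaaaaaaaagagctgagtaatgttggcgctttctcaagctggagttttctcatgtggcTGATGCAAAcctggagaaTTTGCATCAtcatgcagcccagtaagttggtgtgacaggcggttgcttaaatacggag
Slc1a4 (chr11:20332704-20332863, minus strand): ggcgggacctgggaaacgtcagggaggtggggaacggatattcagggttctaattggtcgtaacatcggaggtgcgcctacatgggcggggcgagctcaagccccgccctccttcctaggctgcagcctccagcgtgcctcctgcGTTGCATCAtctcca
In Slc7a11 the motif occurred on the gene's strand from 66 to 58 bases before the start and on the opposite strand from 48 to 40 bases before it. In Slc1a4 it occurred on the opposite strand, across the start itself. A match is a run of letters and not a measured site. Both genes were among the 7 of 8 transporters other than Slc1a5 called higher in leukemic Pax5+/- arrays (all genes, 27.8% called higher). The call therefore does not set them apart from most other members.

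Leukemic Pax5+/- array 4 stood far apart in Slc7a1. Its signal was 12.18, and the next highest of the 10 arrays was 9.55. In the same array Slc1a4 was also the highest of its group, 7.10. Neighbouring genes in RefSeq order were then looked at, a choice made after the Slc7a1 value was seen. On one side 4 of the nearest 10 tested genes were above all of the other 9 leukemic Pax5+/- arrays. The share of all genes that were highest in this array was not computed, so how unusual that count is was not tested. The proteasome assembly gene Pomp was 12.14, against a median of 9.30. The receptor tyrosine kinase gene Flt3 was 13.28, against 10.94. Pan3, which acts in messenger RNA deadenylation, was 12.22, against 10.22. Slc46a3 was 10.46, against 6.83, although 1 other array reached 10.10. Flt1 and Mtus2, which lie among them, were within the range of the other arrays, and none of 10 tested genes on the other side was above it.

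**Figure D4:**
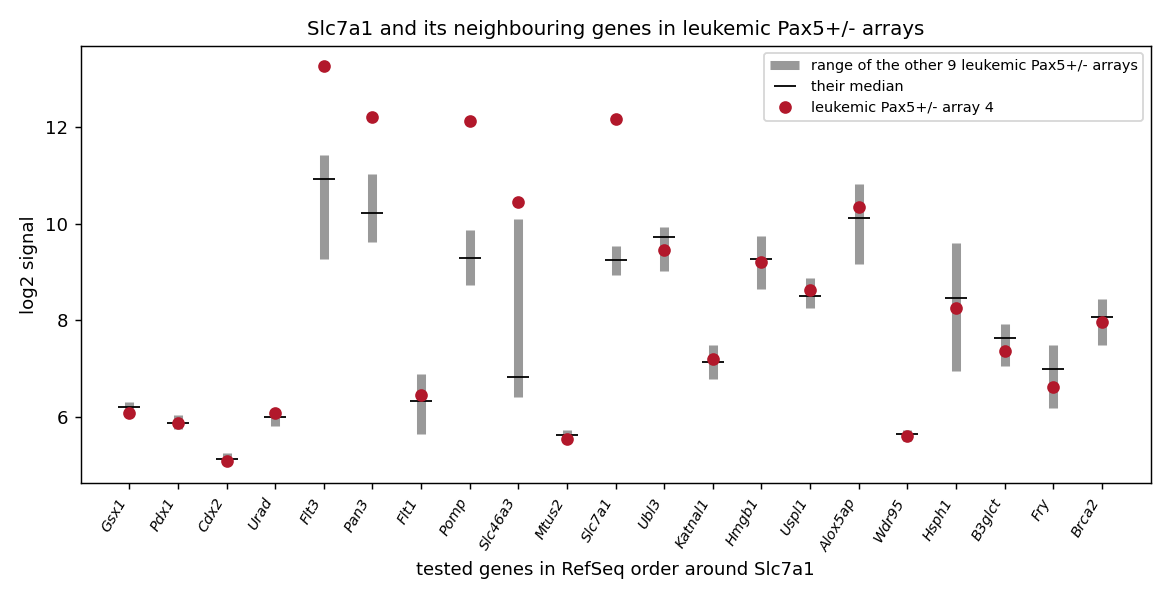
Log2 signal of Slc7a1 and of the 10 tested genes on each side of it in RefSeq order, for leukemic Pax5+/- array 4 (red points) beside the range (grey bars) and median (black lines) of the other 9 leukemic Pax5+/- arrays. The red points of Flt3, Pan3, Pomp, Slc46a3 and Slc7a1 lie above the bars, and those of the 10 genes to the right of Slc7a1 lie within them.

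The nearest genes on each side of Slc1a5 had smaller genotype differences. Ap2s1, an adaptor gene of clathrin-coated vesicles and the nearest tested gene on one side, was 0.33 lower in preleukemic Pax5+/- than in preleukemic WT arrays (limma adjusted p = 0.0252) with no overlap, and differed by -0.15 in leukemic arrays (limma adjusted p = 0.496). Strn4, the nearest on the other side, differed by -0.09 in preleukemic (limma adjusted p = 0.89) and 0.19 in leukemic arrays (limma adjusted p = 0.549). Ap2s1 was the 1 gene called between genotypes among the nearest 10 on each side. The shares of all genes called were 0.16% in leukemic and 0.786% in preleukemic arrays. Of those not called, the calmodulin gene Calm3 and Prkd2 were named after their values were seen. Calm3 differed by -0.43 in preleukemic arrays (limma adjusted p = 0.131), with all Pax5+/- arrays lower, as for 3.45% of all genes. In leukemic arrays it differed by -0.42 with overlap (limma adjusted p = 0.107). Prkd2 went the other way in leukemic arrays, by 0.84 with overlap (limma adjusted p = 0.266). In preleukemic arrays Prkd2 differed by -0.29 (limma adjusted p = 0.9).

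The 5 genes whose signals were most like those of Slc1a5 over the 24 arrays, of 15646 compared, were not transporters of amino acids. The 8 other members and the 30 further transporters tested are a small part of the genes compared. Their absence from the first 5 places is thus near what that share gives. Pearson's r was 0.90 for Lgals4, which encodes a galectin, 0.89 for Eps8l1, 0.86 for the collagen gene Col5a3, 0.82 for Tmc7 and 0.80 for the alkaline phosphatase gene Alpl. Each had its highest mean in preleukemic WT arrays, as Slc1a5 did, which a ranking by likeness to Slc1a5 favours. Eps8l1 averaged 5.62 ± 0.24 in leukemic Pax5+/-, 6.11 ± 0.75 in leukemic WT, 5.70 ± 0.07 in preleukemic Pax5+/- and 7.26 ± 0.19 in preleukemic WT arrays (SD). Tmc7 averaged 5.23 ± 0.09 in preleukemic Pax5+/- and 6.75 ± 0.53 in preleukemic WT arrays (SD). Its signal was dim in 9 of 10 leukemic Pax5+/-, 4 of 4 leukemic WT and 6 of 7 preleukemic Pax5+/- arrays. No preleukemic WT array was dim for Tmc7, so its r of 0.82 largely sets that group against dim values. For the other 8 transporters r with Slc1a5 lay between -0.27 (Slc1a4) and 0.20 (Slc38a2). The arrays share stage and genotype, so these are descriptions. With each group's mean subtracted, the highest r were 0.73 for Cryab, a small heat-shock protein gene, 0.72 for Hspbp1, an Hsp70-binding protein gene, and 0.64 each for Add3, Cox6b2 and Dlc1. Those of the 8 transporters then ran from -0.36 (Slc1a4) to 0.18 (Slc38a2).

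Of 37 further amino acid transporter genes on a separate list, 30 were tested. Between leukemic genotypes none was called (background 0.16%), and 8 had an unadjusted p under 0.05, against 7.6% of all genes. Between preleukemic genotypes 1 was called lower in Pax5+/- arrays (background 0.524% lower). That gene was Slc6a6, the taurine transporter, which averaged 8.50 ± 0.14 in preleukemic Pax5+/- and 9.04 ± 0.18 in preleukemic WT arrays (SD, n = 7 and 3). The difference was -0.53 ± 0.12 (SE; limma adjusted p = 0.0299), and the groups did not overlap. None was called in the difference of stage differences (background 0.185%), where 2 had an unadjusted p under 0.05, against 8.47% of all genes. By stage, 5 were called higher and 14 lower in Pax5+/- mice, where 62.9% of all genes were called, and 7 higher and 8 lower in WT mice, where 39.1% were. The list's median stage difference was -0.10 in Pax5+/- and -0.02 in WT mice, beside -0.05 for all genes in each.

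These further transporters moved both ways with stage. Slc16a10, an aromatic amino acid carrier, averaged 7.91 ± 0.33 in leukemic and 5.99 ± 0.14 in preleukemic Pax5+/- arrays (SD) and was 3.8-fold higher (limma adjusted p = 2.28e-09), and 3.33-fold higher in WT leukemias (limma adjusted p = 1.97e-05). Slc6a6 was 2.65-fold higher in Pax5+/- (limma adjusted p = 8.69e-12) and 1.84-fold higher in WT leukemias (limma adjusted p = 2.18e-05). Slc7a8, a light chain related to Slc7a5, rose by 0.95 in Pax5+/- leukemias, and Slc43a1, another carrier of large neutral amino acids, rose by 1.21 in WT leukemias. Slc36a4, a proton-independent carrier of proline and tryptophan in the SLC36 family, averaged 6.17 ± 0.31 in leukemic and 8.45 ± 0.16 in preleukemic Pax5+/- arrays (SD). It was 4.86-fold lower in Pax5+/- (limma adjusted p = 1.16e-12) and 6.57-fold lower in WT leukemias (limma adjusted p = 5.57e-10). The lysosomal arginine sensor gene Slc38a9 fell by 1.49 in Pax5+/- and by 1.70 in WT leukemias, with no overlap in either. Slc43a2 fell by 0.73 and 0.95.

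Enzymes that use the imported amino acids were called by stage about as often as genes in general in Pax5+/- mice, and more were called higher than lower. Of 18 measured genes of glutamine, asparagine and glutathione metabolism, none was called between leukemic or preleukemic genotypes (2 and 3 had an unadjusted p under 0.05). Of all genes, 0.16% and 0.786% were called there, and 7.6% and 9.22% had an unadjusted p under 0.05. In leukemia 8 were called higher and 3 lower in Pax5+/- mice, where 62.9% of all genes were called (27.8% higher and 35.1% lower). In WT mice 8 were called higher and 2 lower, where 39.1% of all genes were called (18.7% higher and 20.4% lower). The list's median stage difference was 0.32 in Pax5+/- and 0.28 in WT mice, beside -0.05 for all genes in each. Cad, which begins pyrimidine synthesis from glutamine, was 2.97-fold higher in Pax5+/- and 2.61-fold higher in WT leukemias. Ppat, which begins purine synthesis from glutamine, was 2.72-fold and 3.11-fold higher. The 2 subunits of glutamate-cysteine ligase moved in opposite directions. The catalytic subunit gene Gclc fell by 1.85 in Pax5+/- and by 1.29 in WT leukemias, whereas the modifier subunit gene Gclm rose by 1.16 and 1.61.

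Of 21 tested genes of the ATF4 and amino acid response, 1 was called between preleukemic genotypes and none between leukemic ones. Between leukemic genotypes 2 had an unadjusted p under 0.05, against 7.6% of all genes. The shares of all genes called were 0.786% in preleukemic and 0.16% in leukemic arrays. Cth, which makes cysteine from cystathionine, averaged 5.59 ± 0.21 in preleukemic Pax5+/- and 5.15 ± 0.09 in preleukemic WT arrays (SD). WT values were dim, and it was at least 1.21-fold higher in Pax5+/- arrays (limma adjusted p = 0.0173; background 0.262% higher). In leukemia 6 were higher and 7 lower in Pax5+/- mice, beside 62.9% of all genes called, and 6 higher and 5 lower in WT mice, beside 39.1%. The serine and one-carbon enzyme genes Shmt2 and Phgdh were 3.47-fold and 1.93-fold higher in Pax5+/- leukemias and 3.5-fold and 2-fold higher in WT leukemias. Eif2ak3, the gene of the endoplasmic reticulum stress kinase PERK, was 3.72-fold lower in Pax5+/- and 4.49-fold lower in WT leukemias.

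Of 32 genes of amino acid sensing by mTORC1, the kinase gene Mtor alone was called between preleukemic genotypes, lower in Pax5+/- arrays (background 0.524% lower). It ran from 8.59 to 8.84 in preleukemic Pax5+/- and from 9.16 to 9.37 in preleukemic WT arrays, a difference of -0.52 (limma adjusted p = 0.000872). Of all genes, 3.45% were lower there without overlap. Between leukemic genotypes none was called (background 0.16%), and 1 had an unadjusted p under 0.05, against 7.6% of all genes. The difference of the stage differences of Mtor was 0.63 (limma adjusted p = 0.00463; background 0.179% higher), since Mtor averaged 8.71 ± 0.07 in leukemic Pax5+/- and 8.60 ± 0.20 in leukemic WT arrays (SD). At an unadjusted p under 0.05 there were 6 between preleukemic genotypes (9.22% of all genes) and 7 in the difference of stage differences (8.47%). By stage 7 were higher and 12 lower in Pax5+/- mice (62.9% of all genes called), and 2 higher and 8 lower in WT mice (39.1%). Tfeb, a lysosomal transcription factor gene, fell by 1.22 and 1.35, and Deptor, an inhibitor of mTOR, rose by 0.92 and 1.20.

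Myc was higher in leukemia in both genotypes. It ran from 9.09 to 11.93 in leukemic Pax5+/- arrays, against 7.18 to 8.06 in preleukemic ones, and was 11.9-fold higher (limma adjusted p = 7.23e-09). Leukemic WT arrays had 9.97, 11.48, 11.76 and 11.57, against 9.37, 7.75 and 7.82, 7.37-fold higher (limma adjusted p = 0.00015). Preleukemic WT array 1 had the highest preleukemic Myc (9.37), Slc7a5 (9.81), Slc3a2 (10.49) and Slc7a1 (8.41). Between genotypes Myc differed by 0.05 in leukemic (limma adjusted p = 0.992) and -0.64 in preleukemic arrays (limma adjusted p = 0.777). Of 13 MYC network genes, 2 were higher and 5 lower in Pax5+/- leukemias and 1 higher and 4 lower in WT leukemias (all genes called, 62.9% and 39.1%), and none was called between genotypes (1 at each stage had an unadjusted p under 0.05). Of 19 tested mitosis genes 18 were called higher in leukemia in each genotype, where 27.8% of all genes were in Pax5+/- and 18.7% in WT mice. None of them was called between genotypes, where 0.16% of all genes were called in leukemic and 0.786% in preleukemic arrays. None had an unadjusted p under 0.05 there either, against 7.6% and 9.22% of all genes.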

How the data were processed

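Each of 24 one-colour Affymetrix mouse gene arrays has log2 signals of 35556 probe sets, as deposited by the authors. The submitters' processing notes name RMA and the oligo package of R. RMA corrects background, quantile-normalizes and summarizes probes, which compresses differences near background. The sources used here name no versions, genome build or batches. Biotin-labelled total RNA was hybridised, per the labels.

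Probe sets were named from the platform annotation (21789 with 1 symbol, giving 19938 genes), with symbols updated through RefSeq. A gene was tested when it reached the 30th percentile of the array on at least 3 arrays (15647 genes). In R 4.3.3, limma 3.58.1 (eBayes after lmFit and contrasts.fit) estimated 4 group means per gene from all arrays and 5 comparisons among them, with residual degrees of freedom of 20 and prior ones of 2.29. Two-sided p-values were adjusted by Benjamini-Hochberg over all genes tested, with calls at 0.05. Where the lower group was dim, its arrays were set to the dim level and the fold given as at least that value. Samples are biological replicates, per the labels, and the highest correlation between 2 arrays was 0.994. The fit was tested on simulated data.

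The members, the 6 gene lists and the marker lists were chosen with earlier results of these data known. Named were all 9 members, Pax5 and Myc, up to 4 called genes of a list and comparison with the largest differences (6 for transporters), the 5 genes most like Slc1a5 and its nearest neighbours. Replicate numbers did not pair arrays (same-numbered arrays correlated between -0.36 and 0.14 in their deviations). Alternatives varied the variance model, the arrays fitted, array weights, the filter, scaling, probe sets, Y-linked genes, the replicate block and single arrays.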

Additional observations from a re-analysis of the deposited data

Results flagged for a closer look

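Slc7a1 in leukemic Pax5+/- array 4 had a signal of 12.18, and its gap to the nearest array (9.55) took a share of 0.809 of the range of its 10 arrays, above Dixon's critical value for 10 samples at 95%. It was the 1 such sample among 27 combinations of gene and group checked, in groups of 4 to 10 arrays, and chance alone gives about 1 in 20. In that array Slc7a1 stood 2.92 above the median of the other 9, with Pomp 2.84, Flt3 2.34, Pan3 2.00 and Slc46a3 3.63 above theirs on one side of it in RefSeq order.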

How the results depend on the processing

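No alternative turned the direction of Slc1a5 in the genotype comparisons or in the WT stage comparison, and single arrays left out moved it between -1.32 and -1.09 in leukemic and between -3.32 and -3.06 in preleukemic arrays. The other 8 transporters had 0 genotype calls, except 1 (Slc7a5) without preleukemic WT array 2. Leaving out single arrays gave 0 to 0 calls in leukemic, 0 to 1 in preleukemic arrays and 0 to 0 in the difference of stage differences. By stage it gave 7 to 7 higher and 1 to 1 lower in Pax5+/- mice, and 3 to 6 higher and 0 to 1 lower in WT mice.

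Counts over all genes were less stable. Between leukemic genotypes 25 genes were called, against 1 with only the groups compared, 14 with the 50th-percentile filter, 3 with Y-linked genes as a covariate, 3 within low Y-linked genes, 2 with the replicate block and 1 to 133 without single arrays (1 without leukemic WT array 2, 133 without array 3, 49 without array 4, and 6 to 16 without any 1 of 14 others). Between preleukemic genotypes 123 were called, against 249 with only the groups compared, 60 with array weights, 41 within high Y-linked genes, 56 with the replicate block and 44 to 153 without single arrays (44 without WT array 3). The difference of stage differences gave 29, against 17 with the replicate block and 11 to 48 without single arrays (18 without leukemic WT array 4, 48 without preleukemic WT array 1, 11 without array 3). By stage, 9839 genes were called in Pax5+/- mice, against 5783 within high Y-linked genes, and 9203 to 9990 without single arrays. In WT mice 6115 were called, with 4263 to 7047 without single arrays.

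Of the transporters by stage in Pax5+/- mice, 4 were higher within low Y-linked genes and 0 lower within high ones. In WT mice 3 were higher with the Y-linked covariate, and 0 were lower with array weights, with centring or with the replicate block. The replicate block ended the WT calls of Slc1a4 (0.45), Slc7a1 (1.07) and Slc38a2 (-0.43), although the numbers do not pair arrays.

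Signs turned for values near 0. With the replicate block Slc3a2 was -0.01 between leukemic genotypes, and Slc38a2 -0.04 and Slc7a11 0.00 between preleukemic ones. In the preleukemic comparison Slc38a2 was also -0.02 with repeated quantile normalization, -0.03 with the Y-linked covariate and -0.05 within high Y-linked genes, and Slc7a6 was 0.01 with centring and 0.07 with the covariate. Without single arrays, leukemic genotype differences ran from -0.09 to 0.09 for Slc1a4 and from -0.02 to 0.04 for Slc3a2. Preleukemic ones ran from -0.06 to 0.13 for Slc38a2, -0.26 to 0.02 for Slc7a11 and -0.06 to 0.03 for Slc7a6. Differences of stage differences ran from -0.04 to 0.14 for Slc1a4, -0.04 to 0.15 for Slc38a2 and -0.15 to 0.00 for Slc7a6. The causes were not tested.

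Limits: 3 preleukemic WT arrays decide every WT stage value and the preleukemic genotype values. The stages differ in cell material, Y-linked genes go with stage in WT mice, and no batch is given. Slc7a11 and Slc1a4 lie near the dim level, where RMA compresses differences.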

Other observations

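The transporter genes Slc6a9 and Slc38a5 spread widely among the 4 leukemic WT arrays and were narrow in leukemic Pax5+/- arrays. They and the enzyme genes below were picked after their values were seen, and none passed the test. The glycine transporter gene Slc6a9 ran from 5.72 to 6.24 in leukemic Pax5+/- and from 6.06 to 9.03 in leukemic WT arrays, a difference of -1.56 (limma adjusted p = 0.0611). Slc38a5, a glutamine carrier, ran from 5.92 to 6.13 and from 6.00 to 7.94 in the same groups, a difference of -0.78 (limma adjusted p = 0.111). The asparagine synthetase gene Asns spread widely in both groups, from 5.52 to 7.55 in leukemic Pax5+/- and from 6.47 to 8.24 in leukemic WT arrays, and differed by -1.04 (limma adjusted p = 0.295). Gclm differed by -0.85 (limma adjusted p = 0.284). The mean of the erythroid genes, from 6.49 to 7.40 in leukemic Pax5+/- and 7.61 to 9.76 in leukemic WT arrays, also differed there, and its part in these values was not tested.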
